A study of Drosophila melanogaster with 14 samples.

Results

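The Wnt pathway genes wg, Wnt4, fz, fz2, arr, dsh, arm, pan and nkd were followed across every group of a study of Polycomb Repressive Complex 1 (PRC1) in BG3 cells. They were chosen by name, as ligands, receptors, transducers and a feedback target of the pathway, and all 9 are among the 7624 genes of the table. BG3 (ML-DmBG3-c2) is a cultured Drosophila melanogaster line from the larval central nervous system, and all groups were grown with serum and insulin. Ribosome-depleted total RNA was sequenced from 3 libraries treated with double-stranded RNA against Ph (Polyhomeotic), 3 against Sce (Sex combs extra), 2 against Pc (Polycomb) and 6 of mock-treated cells (Mock).

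A Wnt ligand binds a Frizzled receptor together with the coreceptor Arrow. The signal passes through Dishevelled and stops the destruction of Armadillo, the fly beta-catenin, which enters the nucleus and switches on targets with the DNA-binding factor Pangolin. In the fly nervous system and in other tissues the pathway patterns cells and guides axons. PRC1 is a chromatin complex that keeps developmental genes silent, and wg is a textbook target of Polycomb repression.

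For each gene the values are the authors' mean signal of a group, which had been scaled to a common total in an arbitrary unit, with each treated group's ratio to Mock and a q-value, which is a p-value adjusted over the whole table. A gene is said to have risen or fallen only where that q-value was under 0.05. No column holds a single library, so no spread between libraries stands beside any mean, overlap between groups cannot be judged, and neighbours in an order of levels cannot be told apart beyond their spread. The labels do not say that replicates came from separate cultures, so the p-values may measure technical spread. In such bulk samples, more cells with a transcript and more transcript per cell cannot be told apart.

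The RNA of the targeted genes does not show the labelled depletion. By the authors' deposited table the ratio to Mock in the gene's own group was 8.64 for ph-p and 8.09 for ph-d, 27.0 for Sce and 21.5 for Pc, and reads from the added double-stranded RNA may be among them. The groups are therefore called by their labels, and directions are given for a labelled group against Mock. Of 8 neuron markers 1 is listed, elav, so the defining synaptic markers of mature neurons are not among the listed genes, while 6 of 7 glial, 4 of 8 neural precursor, 5 of 8 hemocyte, 3 of 7 muscle and 6 of 6 epithelial markers are. The precursor gene SoxN is listed through the group labelled Ph alone, with 34.98 in Mock.

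The ligand genes wg and Wnt4 had the largest differences of the 9. wg encodes Wingless, the main ligand of the pathway in the fly. Its mean signal in total RNA was 5594 in the group labelled Ph, 274.5 in that labelled Sce and 555 in that labelled Pc, against 255 in Mock. It was highest in the group labelled Ph, though only at percentile 20.2 of listed genes there. In the other 3 groups it lay below 798.3, the smallest peak level over the 4 groups among listed genes. wg is therefore listed through its level in the group labelled Ph, and only a gene that is higher there could be listed in this way. By the authors' deposited table its ratio was 21.9 with Ph (q = 0.009), 1.07 with Sce (q = 0.598) and 2.17 with Pc (q = 0.418).

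Wnt4 encodes a ligand that acts in cell movement and axon targeting. It averaged 41240.1 in the group labelled Ph, 3093 in that labelled Sce and 9296 in that labelled Pc, against 2264 in Mock. It stood above Mock in all 3 labelled groups, most with Ph and least with Sce. The ratios by the authors' deposited table were 18.2 with Ph (q = 0.03), 4.11 with Pc (q = 0.052) and 1.37 with Sce (q = 0.297). Unlike wg, Wnt4 reached the listed floor in Mock as well. Among the listed genes its mean stood at percentile 69.1 in the group labelled Ph and at percentile 10.8 in Mock. With Ph, 100 of the 7624 genes had a larger log2 ratio than wg and 110 a larger one than Wnt4; with Pc, 189 genes exceeded Wnt4.

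**Figure D1:**
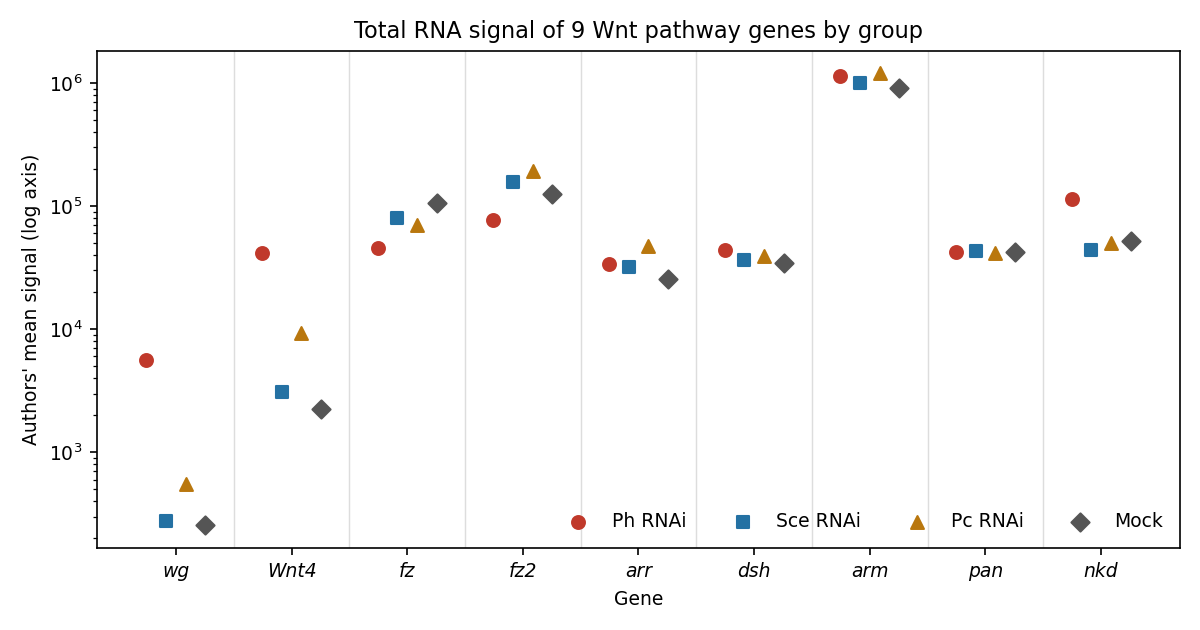
Authors' mean total RNA signal (y axis, log scale, scaled units) of each gene (x axis) in the groups labelled Ph (3 libraries), Sce (3), Pc (2) and Mock (6), each point being the mean of a group with no error available. The ligand genes wg and Wnt4 are highest in the group labelled Ph, at 5594 and 41240.1. arm lies above the other 8 genes in every group, and pan stands at nearly the same level throughout.

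The receptor genes fz and fz2 stood lower than Mock in the group labelled Ph without passing in total RNA. fz encodes Frizzled, a receptor of both Wingless signalling and planar cell polarity. Its total RNA mean was 45267 in the group labelled Ph, 80386 in that labelled Sce and 70619 in that labelled Pc, against 105544 in Mock. All 3 labelled groups lay under Mock, that labelled Ph lowest. The ratios by the authors' deposited table were 0.429 with Ph (p = 0.005, q = 0.059), 0.762 with Sce (q = 0.3) and 0.669 with Pc (q = 0.299). With Ph, 334 of the 7624 genes had a lower log2 ratio than fz.

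fz2 encodes Frizzled2, which binds Wingless with high affinity. It averaged 77320.01 in the group labelled Ph, 156422 in that labelled Sce and 193493 in that labelled Pc, against 124287 in Mock. It was below Mock with Ph and above Mock with Sce and Pc. By the authors' deposited table none of these passed: the ratio was 0.622 with Ph (q = 0.166), 1.26 with Sce (q = 0.401) and 1.56 with Pc (p = 0.036, q = 0.2). The mean in the group labelled Ph was 0.494 of that labelled Sce and 0.4 of that labelled Pc, at percentiles 4.26 and 3.24 of the log2 ratios of all genes between these groups; the table gives no test of either.

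arr encodes Arrow, the LDL receptor-related coreceptor. Its mean was 33536 with Ph, 32126 with Sce and 47444 with Pc, against 25515 in Mock. All labelled groups were above Mock, that labelled Pc most. The ratio of 1.86 with Pc had p = 0.028 and q = 0.176 by the authors' deposited table, and those with Ph and Sce were 1.31 (q = 0.217) and 1.26 (q = 0.368).

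Among the transducers, arm rose in the group labelled Pc. arm encodes Armadillo, which carries the signal into the nucleus and also links cadherins to the actin cytoskeleton. It averaged 1133935 with Ph, 990980.2 with Sce and 1195036 with Pc, against 914465 in Mock. In Mock it stood at percentile 99.1 of all listed genes, and every labelled group was higher by a small factor. By the authors' deposited table the ratio was 1.31 with Pc (q = 0.041), 1.24 with Ph (p = 0.008, q = 0.077) and 1.08 with Sce (q = 0.381). The call with Pc is close to the threshold: adjusting the authors' rounded p-values anew by the Benjamini-Hochberg method gave 0.061. Relative to genes of like exonic length, the log2 ratio with Pc was 0.17, against 0.39 as deposited. The mitochondrial ribosomal protein gene mRpL16 overlaps arm in the annotation; its ratio with Pc was 0.568 (q = 0.247) by the authors' deposited table.

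dsh, whose product Dishevelled relays the signal from the receptors, averaged 44327 with Ph, 36113 with Sce and 39357 with Pc, against 34286 in Mock. The ratios by the authors' deposited table lay between 1.05 (Sce, q = 0.501) and 1.29 (Ph, p = 0.023, q = 0.117). pan, which encodes the TCF factor Pangolin, differed least between groups. Its means were 42287 with Ph, 43506 with Sce and 41480.2 with Pc, against 42012 in Mock, so that the highest was 1.05 times the lowest. No interval can be given for this, as the means carry no error.

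nkd encodes Naked cuticle, an inhibitor that binds Dishevelled and is itself a target of Wingless signalling. It averaged 113663 with Ph, 43859 with Sce and 50188 with Pc, against 51822 in Mock. The group labelled Ph stood apart above the other 3, and those labelled Sce and Pc lay just under Mock. The ratio with Ph was 2.19 (p = 0.015, q = 0.097) by the authors' deposited table and did not pass; with Sce it was 0.846 (q = 0.506) and with Pc 0.968 (q = 0.667).

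**Figure D2:**
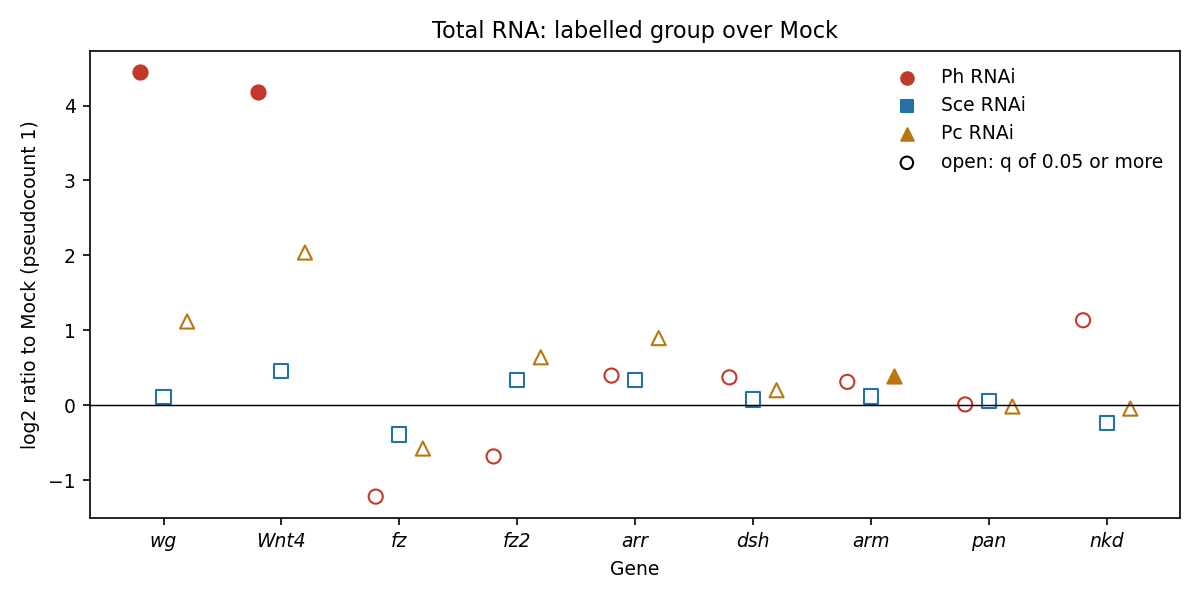
log2 ratio of each labelled group to Mock in total RNA (y axis, pseudocount 1) for each gene (x axis), filled where the authors' q-value was under 0.05 and open otherwise. wg and Wnt4 with Ph, at 4.45 and 4.19, and arm with Pc, at 0.39, are the filled points, and fz lies under 0 in all 3 groups.

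Counted together in total RNA, 2 of the 9 genes rose and 0 fell in the group labelled Ph, where 3.52% of all listed genes rose and 0.367% fell. With Pc, 1 of 9 rose and 0 fell, where 3.04% of all genes rose and 0.144% fell. With Sce the authors' deposited table has 0 of 9 at a q-value under 0.05, where 0.249% of all genes lay, and also 0 at an unadjusted p under 0.05, where 11.6% of all genes lay. Because wg had to be higher with Ph to be listed, the count there is a description. The median log2 ratio of the 9 was 0.37 with Ph, 0.10 with Sce and 0.39 with Pc, beside 0.07, 0.06 and 0.05 over all genes. Across all genes these ratios also went with exonic length. Relative to genes of like exonic length, the middle value of the 9 was 0.16 with Ph (dsh), -0.11 with Sce (arm) and 0.17 with Pc (arm).

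Per kilobase of exonic sequence, arm had the highest signal and wg the lowest of the 9 in each of the 4 groups. In the group labelled Ph the order per kilobase, from the highest level down, was arm, nkd, dsh, Wnt4, fz, fz2, arr, pan and wg, at 22454 for nkd, 12248 for Wnt4, 11859 for fz and 10418 for fz2. In Mock it was arm, fz, fz2, dsh, nkd, arr, pan, Wnt4 and wg, at 27651 for fz, 16746 for fz2, 10237 for nkd, 672 for Wnt4 and 87.5 for wg. Per kilobase the ligand gene Wnt4 thus stood above fz and fz2 in the group labelled Ph, and below all but wg in Mock. How far such neighbours differ beyond library spread is unknown.

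A further signal, marked nt.gene in the header, comes with ratios to Mock for Ph and Sce. What it measures is not explained by the header or the labels. Its means, 3 columns, could be tied to none of the labelled samples and are left aside, so its ratios, p-values and q-values stand without levels and apart from total RNA. In this signal Wnt4 rose with Ph, and both Frizzled genes fell. Of the 9 genes, 1 rose and 2 fell, where 1.69% of all genes rose and 0.787% fell with Ph.

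By the authors' deposited table, the nt.gene ratio of Wnt4 was 5.71 with Ph (q = 0.012) and 1.82 with Sce (p = 0.009, q = 0.264). Of all listed genes, 177 had a larger nt.gene ratio with Ph. wg had 4.65 with Ph (p = 0.007, q = 0.081) and 1.90 with Sce (q = 0.644) by the authors' deposited table. For both ligand genes the larger ratio was again that with Ph, but wg did not pass in this signal.

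fz had an nt.gene ratio of 0.31 with Ph (q = 0.017) and 0.642 with Sce (p = 0.002, q = 0.137) by the authors' deposited table. It lay under Mock with both, as in total RNA, and 112 of the 7624 genes had a lower nt.gene ratio with Ph. fz2 fell with Ph at 0.459 (q = 0.049), and had 0.811 with Sce (q = 0.53), by the authors' deposited table. That call of fz2 was lost when the rounded p-values were adjusted anew by the Benjamini-Hochberg method, at 0.0663. With Sce fz2 was above Mock in total RNA and below it in nt.gene, and neither passed.

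The other 5 genes and wg did not pass in nt.gene. nkd, which had a ratio of 2.19 with Ph in total RNA, had 1.14 here (q = 0.523) by the authors' deposited table. arm had nt.gene ratios of 0.769 with Ph (q = 0.352) and 0.814 with Sce (q = 0.593) by the authors' deposited table, under 1 where its total RNA ratios were over 1. dsh stood at 1.42 with Ph and 1.51 with Sce, arr at 0.936 with Ph and 0.845 with Sce, and pan at 0.826 with Ph and 0.98 with Sce, with q-values of 0.257 or more by the authors' deposited table. With Sce the nt.gene columns of the authors' deposited table have 0 of 9 at a q-value under 0.05, where 0.118% of all genes lay. At an unadjusted p under 0.05 they have 2 of 9, Wnt4 and fz, where 9.9% of all genes lay. Differences between nt.gene and total RNA were not tested.

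**Figure D3:**
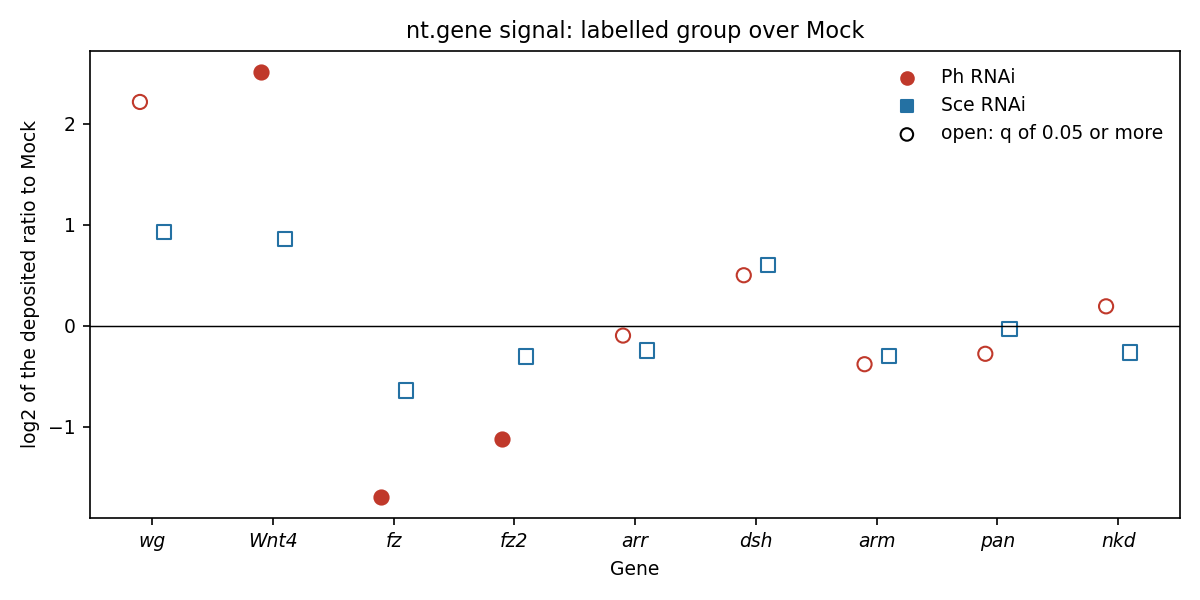
log2 of the deposited nt.gene ratio to Mock (y axis) for Ph and Sce and each gene (x axis), filled where the authors' q-value was under 0.05 and open otherwise; what nt.gene measures is not stated, and no error is available. Wnt4 at 2.51 and, on the lower side, fz at -1.69 and fz2 at -1.12 are the filled points, all with Ph.

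The 9 genes differ in structure in the Ensembl annotation of BDGP6, which may not be the authors' build. The spans of fz and fz2 are 94297 and 94399 bp, of which 4.05% and 7.86% are exonic, while dsh spans 2844 bp and is wholly exonic. wg spans 9107 bp with 32.1% exonic and Wnt4 21753 bp with 15.5% exonic. The median span of listed genes is 2795 bp, so the 9 are all longer than that median.

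wg and Wnt4 are near neighbours on chromosome arm 2L. In the RefSeq order of start positions (Release 6 plus ISO1 MT) only CG31909 comes between them. In the Ensembl annotation CG31909 overlaps Wnt4. The ligand genes Wnt6 and Wnt10 follow on the other side of wg. None of CG31909, Wnt6 and Wnt10 is among the listed genes. Next to Wnt4 on its outer side, past 3 genes that are not listed, lies Ndae1, a sodium-driven anion exchanger gene. Its mean was 28437 with Ph, 4175 with Sce and 29650.3 with Pc, against 1612 in Mock. It rose with Pc, with a ratio of 18.4 (q = 0.003) by the authors' deposited table, and its ratio with Ph was 17.6 (q = 0.062). On the other side of wg, the next listed gene, CG5149, had a ratio of 0.836 with Ph (q = 0.464) by the authors' deposited table.

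Likeness to wg and Wnt4 was ranked among genes with a given name. Genes still called by a CG or CR identifier were left out, and some of them may lie nearer. Within this limit, the genes most like wg and Wnt4 had the smallest Euclidean distance over the 4 group means of total RNA (log2 scale). For wg these were the kinase gene srpk79D, at a distance of 0.65, then dac, slp1, malpha and sano, between 1.11 and 1.59. dac encodes a nuclear factor of eye and leg development, slp1 a forkhead segmentation factor and malpha a Notch-responsive gene. Like wg, dac averaged 6341 with Ph, 481 with Sce and 685 with Pc, against 160.0 in Mock. As for wg, the means of srpk79D, dac, slp1 and malpha lay below 798.3 with Sce, with Pc and in Mock. These genes are therefore also listed through the group labelled Ph and had to be higher there. For Wnt4 they were the adhesion gene Fas3, at 0.707, then hoe1, the visual system homeobox gene Vsx1, axo and Mgat2, between 1.21 and 1.44. Fas3 averaged 46252 with Ph, 4602 with Sce and 12009.9 with Pc, against 2405 in Mock. This likeness rests on 4 means.

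Of 67 other genes on fixed lists of the Wnt pathway, 46 are listed. In total RNA 4 rose and 0 fell with Ph, beside 3.52% and 0.367% of all genes, and 1 rose and 0 fell with Pc, beside 3.04% and 0.144% of all genes. With Sce 0 passed by q under 0.05 of the authors' deposited table, where 0.249% of all genes lay. At an unadjusted p under 0.05 with Sce, 9 were higher and 1 lower, where 11.6% of all genes lay. Those that rose with Ph were CG8964, which encodes the Off-track related coreceptor Otk2, at 1.64 (q = 0.017), CkIalpha, a kinase that primes Armadillo for destruction, at 1.35 (q = 0.022), gro, a corepressor that binds Pangolin, at 1.42 (q = 0.031), and the limb target gene Dll by the authors' deposited table. Dll averaged 2594 with Ph, 0.77 with Sce and 162 with Pc, against 15.02 in Mock (q = 0.022 with Ph by the authors' deposited table). The 0.77 is the lowest value of its column and is read as no signal. Dll too is listed through the group labelled Ph and had to be higher there, so the count of 4 is a description. The gene that passed with Pc was dpp, a ligand gene of the BMP pathway that Wingless regulates in limbs, at 1320 with Pc against 96.9 in Mock (q = 0.001 by the authors' deposited table). In Mock and with Sce dpp lay below 798.3, so it is listed through the groups labelled Ph and Pc, where it is high.

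By role, the Wnt5 ligand gene, the sole other ligand listed of 5, had ratios of 0.877 with Ph (q = 0.362), 0.994 with Sce (q = 0.611) and 0.795 with Pc (q = 0.332) by the authors' deposited table. Of the 9 listed receptors and coreceptors 1 rose with Ph, where 3.52% of all genes rose. The Derailed-related gene Drl-2, which reached the listed floor in Mock alone and so had to be lower elsewhere, had 0.144 with Ph (p = 0.025, q = 0.121), 0.377 with Sce (q = 0.279) and 0.514 with Pc (q = 0.437) by the authors' deposited table. The Derailed receptor gene drl had 3.43 with Ph (q = 0.079) and 2.65 with Pc (q = 0.175), and the glypican gene dlp had 1.44 with Ph (q = 0.403), 2.35 with Sce (q = 0.237) and 2.38 with Pc (q = 0.25) by the authors' deposited table. The other Frizzled genes fz3, itself a Wingless target, and fz4 had 0.546 (q = 0.362) and 1.26 (q = 0.311) with Ph by the authors' deposited table.

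Among 14 listed genes of the destruction complex and cytoplasm, 1 rose with Ph, where 3.52% of all genes rose. Of the 14, 13 had a ratio over 1, as did 55.6% of all genes, and the list's median log2 ratio was 0.42. The scaffold genes Apc, Axn and Apc2 had 2.02 (q = 0.085), 1.40 (q = 0.16) and 1.04 (q = 0.555) with Ph by the authors' deposited table. Apc also had 1.77 with Sce (q = 0.246) and 1.82 with Pc (q = 0.259), and its nt.gene ratio with Ph was 1.02 (q = 0.65), by the authors' deposited table. Among 12 nuclear factors 1 rose with Ph, beside the same 3.52% of all genes, and their median log2 ratio was 0.37. The genes lgs and pygo, cofactors of Armadillo, had 1.37 (q = 0.209) and 1.29 (q = 0.345) with Ph by the authors' deposited table. Of the 2 genes listed for secretion and the extracellular space, wls, which carries Wnt proteins to the cell surface, had 1.64 with Ph (q = 0.055), and shf, which in the fly acts on Hedgehog, had 0.264 with Ph (q = 0.063), 0.274 with Sce (q = 0.198) and 0.175 with Pc (q = 0.113) by the authors' deposited table. The 4 planar polarity genes stan, Vang, pk and ft lay between 0.658 and 0.88 with Ph, with q-values of 0.434 or more by the authors' deposited table. Of the 6 listed targets, nkd among them, 1 rose with Ph, Dll, where 3.52% of all genes rose. Because Dll had to be higher with Ph to be listed, this count is a description. By the authors' deposited table dpp averaged 12508 with Ph, against 96.9 in Mock, and did not pass (p = 0.042, q = 0.149), en had 2.52 (q = 0.2) and neur 1.04 (q = 0.554).

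In the nt.gene columns with Ph, 2 of the 46 rose and 3 fell, beside 1.69% and 0.787% of all genes. nmo, which encodes a kinase that restrains Wingless signalling, rose at 2.23 (q = 0.043) and Dll rose at 17.8 (q = 0.044), while the receptor genes dnt (0.499, q = 0.021) and otk (0.662, q = 0.041) and also shf (0.289, q = 0.044) fell by the authors' deposited table. Without passing, Drl-2 had 0.293 (p = 0.007, q = 0.085), fz3 0.736 (p = 0.016, q = 0.118), fz4 0.796 (q = 0.438) and dlp 2.48 (q = 0.197) in this signal by the authors' deposited table. In total RNA dnt had 0.812 (q = 0.324) and otk 1.49 (q = 0.176) with Ph by the authors' deposited table. With Sce the nt.gene columns of the authors' deposited table have 0 of 46 at a q-value under 0.05, where 0.118% of all genes lay. At an unadjusted p under 0.05 they have 0 higher and 4 lower, where 9.9% of all genes lay.

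**Figure D4:**
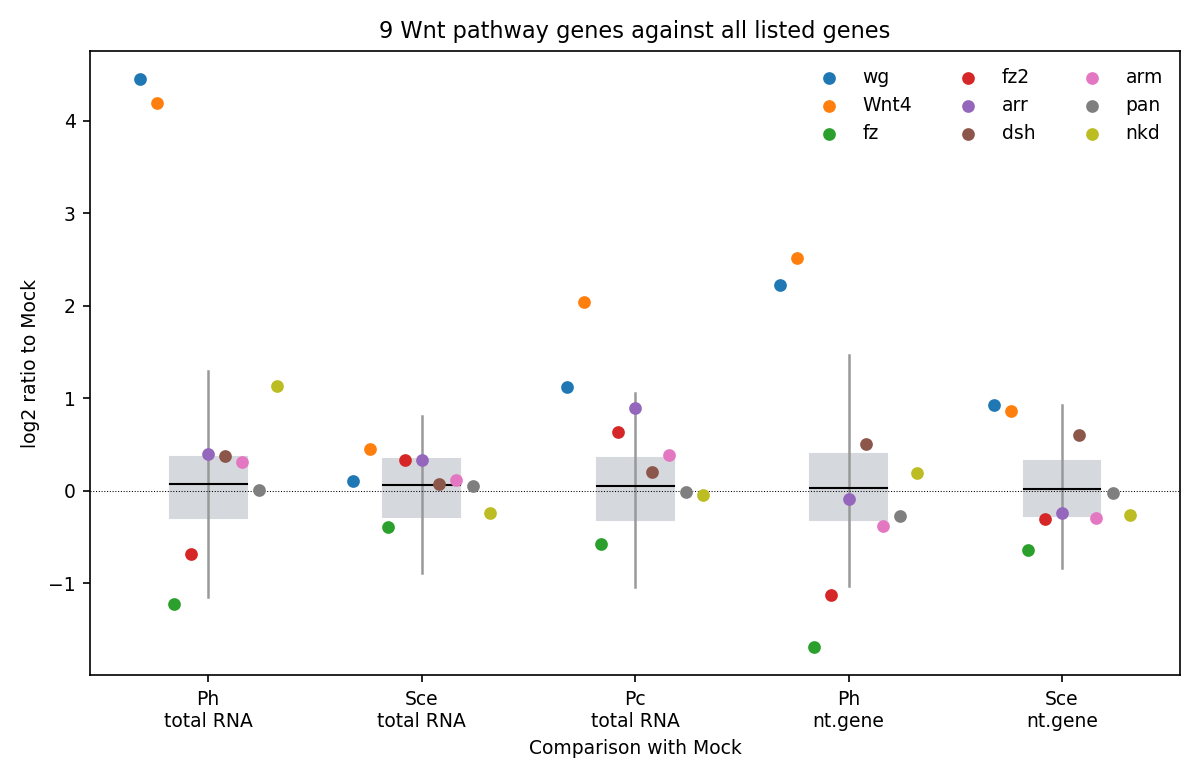
log2 ratio to Mock (y axis, pseudocount 1 for total RNA and none for nt.gene) of the 9 genes as points in the 3 total RNA and 2 nt.gene comparisons (x axis), beside all 7624 listed genes as a median line, a box from the 25th to the 75th percentile and a grey line from the 5th to the 95th. wg and Wnt4 lie above the grey line with Ph in both signals and with Pc in total RNA, and wg also lies just above it with Sce in nt.gene. fz lies below the grey line with Ph in both signals, and fz2 does with Ph in nt.gene.

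Markers of other cell types moved with some of these differences. The summed total RNA signal of the 4 listed neural precursor markers was 86082 with Ph, 13765 with Sce and 54405 with Pc, against 7583 in Mock. That of the 6 glial markers was 597707 with Ph, 336015 with Sce and 405834 with Pc, against 332858 in Mock. Both sums were highest with Ph, as wg and Wnt4 were, and so were the muscle sum and elav given below. The epithelial sum was highest with Pc and the hemocyte sum in Mock. The part of any of these cell types in the ligand differences was not tested. All 4 precursor markers had a ratio over 1 with Ph, as did 3 of the 6 glial markers, and the glial median log2 ratio was 0.06. SoxN is listed through the group labelled Ph alone and so had to be higher there. It made up 19970 of the precursor sum with Ph. The largest part of that sum, 35073, was insc, which had 6.99 with Ph (q = 0.264) by the authors' deposited table. Neither insc nor mira (1.67, q = 0.28) passed with Ph, while pros (29.3, q = 0.023) and SoxN (571, q = 0.041) rose. With Pc, pros made up 35847 of the precursor sum. Of the glial genes repo (54.0, q = 0.004) and nrv2 (2.10, q = 0.015) rose with Ph, while moody had 0.774 (q = 0.405), Eaat1 0.674 (q = 0.444) and Gs2 0.644 (q = 0.468) by the authors' deposited table. The 6 epithelial markers summed to 457442 with Ph, 358037 with Sce and 470072 with Pc, against 262112 in Mock. The 5 hemocyte markers summed to 188161 with Ph, 271021 with Sce and 216286 with Pc, against 276569 in Mock. Of these 5, 2 had a ratio over 1 with Ph: crq had 0.806 (q = 0.345), srp 0.565 (q = 0.298) and Pxn 0.501 (q = 0.105) with Ph, and Hml 1.45 (q = 0.469) and eater 1.46 (q = 0.414), by the authors' deposited table. The 3 muscle markers summed to 62484 with Ph, 46146 with Sce and 44857 with Pc, against 41219 in Mock. Mef2 made up 40224 of that sum in Mock and had a ratio of 1.24 with Ph (q = 0.313) by the authors' deposited table. With Ph twi rose at 30.1 (q = 0.03) and Act57B had 7.43 (q = 0.207) by the authors' deposited table, both from below the listed floor in Mock. The neuron marker elav stood at 21194 with Ph, 16273 with Sce and 19887 with Pc, against 17293 in Mock. Across genes the total RNA log2 ratio also went with exonic length. Spearman rho over 7517 genes was 0.381 with Ph, 0.373 with Sce and 0.314 with Pc. In nt.gene it was 0.027 with Ph and 0.068 with Sce. Relative to genes of like length, the total RNA log2 ratios of wg and Wnt4 with Ph were 4.23 and 3.98. The part of exonic length in the ligand differences was not tested.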

How the data were processed

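The authors' signal values are group means, deposited after scaling to a common total: the largest total RNA column sum exceeded the smallest by 0.0209%. The ratio, p-value and q-value columns are the authors' own per the file headers, with 3 decimals, and every deposited total RNA ratio equalled the quotient of means within 2% or 0.001. The submitters' processing notes name bedtools; how reads were aligned, counted by strand, normalized and tested, and on which build, is not given in the sources used. Depth per library is unknown, and the table held 0 columns per library, so the planned limma tests were replaced by the authors' q-values. The 3 columns of nt.gene means could be tied to none of the labelled samples and were left aside.

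Log2 ratios used a pseudocount of 1, and none for nt.gene. Exonic lengths came from Ensembl release 115 (BDGP6) for 7517 genes, matched by symbol or a unique synonym. Calculations used Python 3.11.15, pandas 2.3.3, NumPy 2.4.6 and SciPy 1.17.1. Benjamini-Hochberg values and centring by 10 bins of length were tested on simulated data. Members and lists were chosen with earlier results of these data known. Named were the 9 genes, list genes that passed or stood in lists of 5 or fewer, and chromosomal neighbours. Also named were the 5 genes nearest wg and Wnt4 among those with a given name. Other list genes (Drl-2, drl, dlp, fz3, fz4, Apc, Apc2, Axn, lgs, pygo, en and neur) were named after their values were seen. Promoter motifs were not analysed here.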

Additional observations from a re-analysis of the deposited data

How the results depend on the processing

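Counting at the authors' unadjusted p-value under 0.05 gave 6 of the 9 genes with Ph (5 higher, 1 lower), 4 with Pc and, in the nt.gene columns, 2 with Sce, against 2, 1 and 0 at q under 0.05; at that p lay 18.6%, 14.4% and 9.9% of all genes. At q under 0.1 the counts were 5 with Ph and 2 with Pc, where 9.17% and 5.4% of all genes lay. Benjamini-Hochberg values recomputed from the rounded p-values left 0 with Pc, since arm stood at 0.061, and 2 with Ph in the nt.gene columns, without fz2. Of all genes, 2.69% and 2.14% passed in these comparisons. Limiting the table to genes whose Mock mean alone reached 798.3 left 1 with Ph, Wnt4, because wg is below that in Mock. Of all 7624 genes, 2.75% met this limit and had q under 0.05 with Ph. Sce in total RNA stayed at 0 in every alternative run. Of 126 log2 ratios recomputed with another pseudocount or centring, 119 kept their sign and moved by no more than 1.5-fold; 7 changed sign, all uncalled values within 0.2 of 0 on the log2 scale, those of pan with Ph and Sce and of wg, dsh and arm with Sce. No paired analysis was possible because 0 columns hold single libraries, and leaving out replicates was not run for the same reason. No rank of these genes in a group can be given an error.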

Other observations

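Among 6 listed epithelial markers, 3 rose in the group labelled Pc, where 3.04% of all genes rose. shg, which encodes the E-cadherin that Armadillo binds, averaged 204848 with Pc, against 74784 in Mock, a ratio of 2.74 (q = 0.03) by the authors' deposited table. The polarity genes crb and baz rose at 5.94 (q = 0.002) and 1.68 (q = 0.023) by the authors' deposited table. The other 3 did not pass with Pc: cora had 1.35 (q = 0.485), sdt 1.15 (q = 0.408) and Tsf2 0.816 (q = 0.265) by the authors' deposited table. With Ph, where 3.52% of all genes rose, cora, a septate junction gene, was the 1 of the 6 that rose, at 2.24 (q = 0.046), while shg had 1.67 (q = 0.133) by the authors' deposited table. With Sce the authors' deposited table has 0 of 6 at a q-value under 0.05, where 0.249% of all genes lay. It has 1 higher at an unadjusted p under 0.05, where 11.6% of all genes lay.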
